A study of Sus scrofa with 12 samples.

Results

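The immediate early genes described here are FOS, FOSB, C-JUN (JUN), JUNB, EGR1, EGR2, KLF4, KLF6, ATF3 and DUSP1, followed in the uterus of newborn gilts, young female pigs. Members were taken from the deposited expression table by gene symbol or, where the table held only a placeholder, by gene description. Of the 10 genes, 7 were found, on 9 of the 20390 rows of the table, because EGR1 and EGR2 each had a second row described as a gene like them. FOSB, JUNB and ATF3 were not analysed here.

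Uterine messenger RNA was sequenced from 12 crossbred gilts of Landrace, Yorkshire, Duroc and Hampshire ancestry, with 1 library per animal and 4 animals per group. PND2N gilts nursed freely for 48 h, PND2R gilts were given a commercial milk replacer for 48 h, and both were killed at 50 h of age on postnatal day 2. PND0 gilts were killed within 1 h of birth, with no nursing, and are the group at birth. The whole uterus was used after connective tissue had been trimmed away, no litter or batch is recorded, and age and feeding change together between birth and day 2 and cannot be told apart.

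Immediate early genes are transcribed within minutes of a stimulus such as a growth factor, stretch, handling or hypoxia, from proteins already present in the cell, and their transcripts are short-lived. FOS and JUN proteins pair to form the transcription factor AP-1, the EGR proteins are zinc finger factors induced through MAP kinase signalling, and KLF4 and KLF6 are Krüppel-like factors that act on proliferation and differentiation. DUSP1 is the phosphatase of the group: it removes the activating phosphates from MAP kinases and so limits the same signal.

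Values are the authors' normalized linear signal, which has a floor of 1 in every library. Library totals lay between 26534074 and 29544130, between 17.8% and 22.1% of genes stood at the floor, and the lowest correlation between any pair of libraries was 0.935. The uterine patterning genes HOXA10, HOXA11 and EMX2 were well above the floor in all 12 libraries, at 3468 to 8409, 3827 to 8542 and 4695 to 7179. Day 2 libraries differed widely in DES, the muscle intermediate filament gene, and PND0 libraries in KRT8, an epithelial keratin. The summed values of the leukocyte markers, 9 of 10 matched, were 11141 to 13898 in PND2N, 9886 to 13799 in PND2R and 5088 to 10525 in PND0, and the complement genes C1QC and C1QB, LAPTM5 and AIF1 were among the 5 of 9 that rose at day 2 (limma, adjusted p under 0.05), where 9.57% of all genes rose; 3 of the 9 had a lower mean log2 value at day 2 and none fell. The part of cell composition in the results below was not tested, and in whole tissue fewer cells of a type and less RNA per cell cannot be told apart.

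The immediate early genes were lower at day 2 than at birth. All 8 rows that could be tested had a lower mean log2 value in PND2N than in PND0, in PND2R than in PND0, and in both day 2 groups together than in PND0, each with an unadjusted p under 0.05 in limma, and the median log2 change of the 8 was -1.15 in each of these contrasts. Over all 16862 genes tested the median change was -0.035 in PND2N, -0.055 in PND2R and -0.047 in both day 2 groups together. With p adjusted over all genes tested (limma, Benjamini-Hochberg, threshold 0.05), 6 rows fell in both day 2 groups together, where 8.49% of all genes fell: FOS, JUN, both EGR1 rows, EGR2 and KLF6. EGR1 is thus counted on both its rows. With these summed, a fit chosen after the data were seen, 5 rows fell. Against PND0, 5 rows fell in PND2R, where 7.31% of all genes did, and 1 fell in PND2N, where 1.41% did. The 2 contrasts share the PND0 libraries, so they are not separate evidence of the same change. Without regard to any threshold, 52.5% of all genes were lower in PND2N, 53.0% in PND2R and 52.8% in both day 2 groups together than in PND0, and an unadjusted p under 0.05 on the lower side was reached by 11.1% in PND2N, 20.1% in PND2R and 20.1% in both together.

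**Figure D1:**
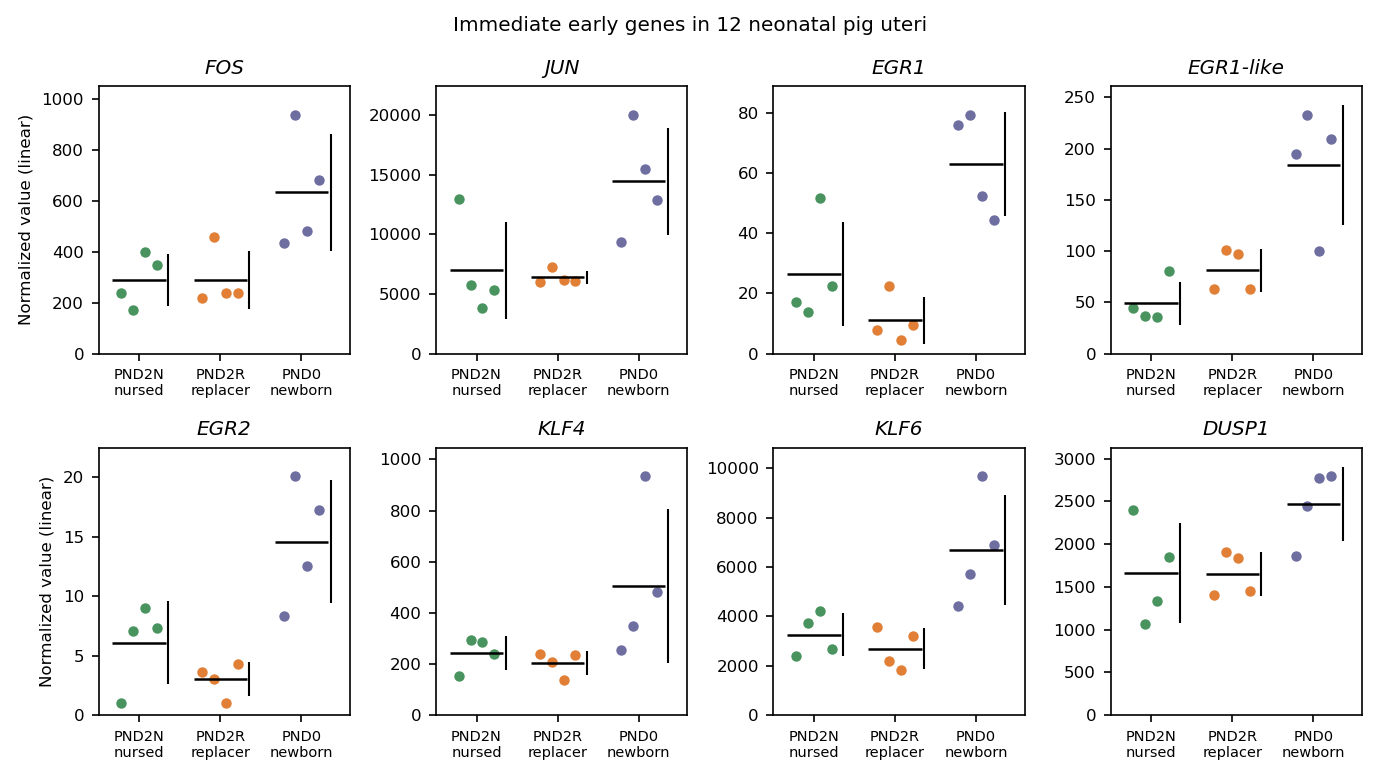
Each panel plots the normalized linear value of 1 gene row in the 12 libraries, grouped as PND2N, PND2R and PND0, with points for libraries and the mean ± SD of 4 beside them. The PND0 points lie above most day 2 points in every panel, and KLF6 is the row where all 8 day 2 values lie below all 4 PND0 values.

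The AP-1 genes were FOS and JUN. FOS, on chromosome 7 from 103725351 to 103727814 on the plus strand of Sscrofa10.2, had values of 237, 171, 398 and 347 in PND2N, 218, 459, 238 and 238 in PND2R, and 434, 938, 479.6 and 681 in PND0. All 4 PND2N libraries lay below all PND0 libraries, and 1 PND2R library, the second, lay above the lowest PND0 library. The means were 288 ± 103 in PND2N, 288 ± 114 in PND2R and 633 ± 229.9 in PND0 (SD, n = 4 each). FOS fell by 1.14 ± 0.31 on the log2 scale in both day 2 groups together (limma, adjusted p = 0.0277) and by 1.14 ± 0.35 in PND2R (adjusted p = 0.0496). In PND2N the change was -1.14 ± 0.35 with adjusted p = 0.0884, so the estimates in the feeding groups were alike although only one passed.

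JUN, the partner of FOS in AP-1, is listed as C-JUN on chromosome 6 from 141029845 to 141031055 on the plus strand. Its values were 12967, 5760.5, 3845 and 5325 in PND2N, 6029, 7225, 6138 and 6118 in PND2R, and 9348, 20027, 15495 and 12899 in PND0. The first PND2N library stood more than 2-fold above the rest of its group and inside the PND0 range, while the other 7 day 2 libraries lay below every PND0 library. JUN averaged 6975 ± 4078 in PND2N, 6377 ± 567 in PND2R and 14442 ± 4496 in PND0 (SD, n = 4 each). It fell by 1.14 ± 0.28 on the log2 scale in both day 2 groups together (limma, adjusted p = 0.0209) and by 1.13 ± 0.32 in PND2R (adjusted p = 0.0389). In PND2N its change was -1.15 ± 0.32 with adjusted p = 0.0697, and without the first PND2N library it was -1.50 with adjusted p = 0.0312.

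Neither AP-1 call was stable to the loss of single libraries. In PND2R against PND0 the FOS call ended without any 1 PND2R or PND0 library or without PND2N 4, at adjusted p of 0.0531 to 0.130 in limma, and the JUN call ended without PND2N 2 or 4, any 1 PND2R library, or PND0 2, 3 or 4, at 0.0512 to 0.1003. In both day 2 groups together the FOS call ended without PND2R 3 (0.0519), PND0 2 (0.0713) or PND0 4 (0.0846), and the JUN call without PND0 2 (0.0532), PND0 3 (0.0586) or PND0 4 (0.0545). In PND2R the FOS call also ended with 0.1 added before the log (0.0501), no filter (0.0749), TMM scaling (0.0527), quantile normalization (0.0734) or plain empirical Bayes (0.0518), and the JUN call with no filter (0.0732) or plain empirical Bayes (0.0508), while JUN passed in PND2N with library quality weights (0.0205).

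EGR1, the immediate early factor of the EGR family most often used as a readout of MAP kinase activity, had the most negative log2 change of the members in PND2R and in both day 2 groups together. Its row on chromosome 2 from 146274163 to 146276770 (plus strand) had values of 17.1, 13.9, 51.8 and 22.5 in PND2N, 7.75, 22.5, 4.40 and 9.33 in PND2R, and 75.9, 79.4, 52.3 and 44.2 in PND0. All 4 PND2R libraries lay below all PND0 libraries, and the third PND2N library reached the PND0 range. The means were 26.3 ± 17.3 in PND2N, 11.0 ± 7.94 in PND2R and 62.9 ± 17.3 in PND0 (SD, n = 4 each). EGR1 fell by 2.59 ± 0.51 on the log2 scale in PND2R (limma, adjusted p = 0.0128) and fell by 1.98 ± 0.44 in both day 2 groups together (adjusted p = 0.0149), while its change in PND2N was -1.37 ± 0.51 (adjusted p = 0.138).

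The second EGR1 row lies on the same chromosome from 146169381 to 146172848 on the minus strand, and is called EGR1-like here. Its values were 44.1, 36.3, 35.3 and 80.3 in PND2N, 63.1, 101, 96.8 and 63.0 in PND2R, and 194, 233, 99.6 and 209 in PND0. Here all 4 PND2N libraries lay below all PND0 libraries, and it was PND2R 2 that overlapped, with the lowest PND0 library, PND0 3. EGR1-like averaged 49.0 ± 21.2 in PND2N, 81.1 ± 20.9 in PND2R and 184 ± 58.5 in PND0 (SD, n = 4 each). It fell by 1.90 ± 0.37 on the log2 scale in PND2N (limma, adjusted p = 0.0263) and by 1.52 ± 0.32 in both day 2 groups together (adjusted p = 0.0124), and its change in PND2R was -1.14 ± 0.37 (adjusted p = 0.0562).

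The EGR1 rows lie in like surroundings. In the table's Sscrofa10.2 positions each lies between a row described as REEP2-like, a receptor expression-enhancing protein, and a row described as ETF1-like, a translation release factor. These flanking rows lie from 146088526 to 146095177 and from 146180816 to 146185928 around EGR1-like, with a row described as lysine-specific demethylase 3B-like between REEP2-like and EGR1-like (146097134 to 146103496), and from 146252081 to 146258881 and from 146304663 to 146337254 around EGR1, where no such row was found between REEP2 and EGR1. The REEP2-like, EGR1-like and ETF1-like rows of the first set are each on the opposite strand from the counterpart in the second, and the gene table of the later assembly Sscrofa11.1 holds the identifiers of the second set only. How the authors divided reads between such rows is not given in the sources used here, so the level of either EGR1 row alone is uncertain.

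The EGR1 row took 28.0%, 27.6%, 59.5% and 21.9% of the sum of both rows in PND2N, 10.9%, 18.2%, 4.35% and 12.9% in PND2R, and 28.1%, 25.4%, 34.4% and 17.4% in PND0. Its share was lower in PND2R than in PND2N in all libraries without overlap, and the direction of the difference between feeding groups was opposite in the separate rows. The summed value was 61.3, 50.2, 87.1 and 103 in PND2N, 70.9, 124, 101 and 72.3 in PND2R, and 270.2, 312, 152 and 254 in PND0. Every day 2 library lay below every PND0 library in the sum. Summing was chosen after the data were seen; it gave a fall of 1.56 ± 0.29 on the log2 scale in both day 2 groups together (limma, adjusted p = 0.00791), 1.71 ± 0.34 in PND2N (0.0268) and 1.41 ± 0.34 in PND2R (0.0227).

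**Figure D2:**
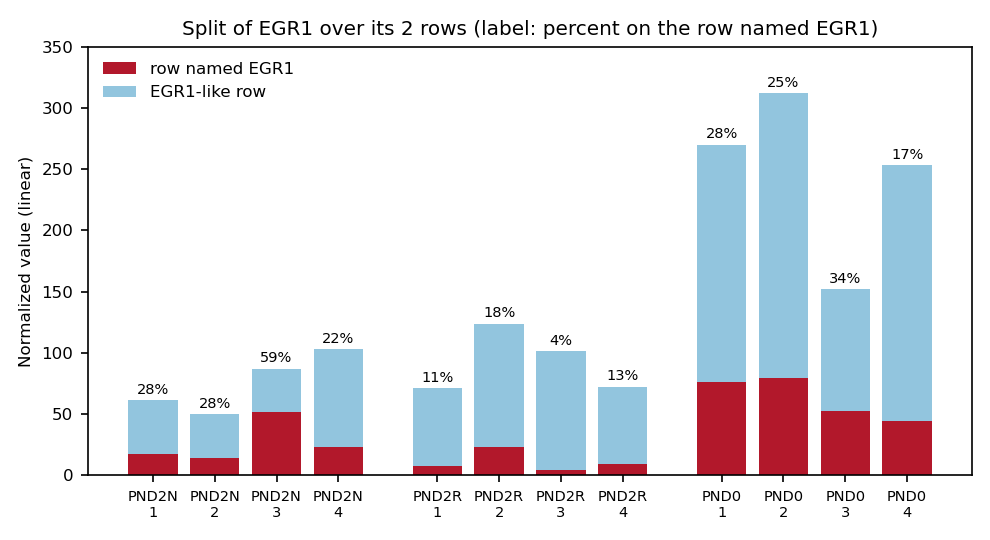
The stacked bars plot the normalized linear values of the EGR1 and EGR1-like rows in each of the 12 libraries, PND2N and PND2R left of PND0. The summed height is 50.2 to 124 in the day 2 libraries and 152 to 312 in the PND0 libraries, while the part held by the EGR1 row runs from 4.35% to 59.5%.

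The call on EGR1 in PND2R held without any 1 library, with adjusted p of at most 0.0432 over all alternatives. The call on EGR1-like in PND2N ended without PND2N 1 (limma, adjusted p = 0.0633), PND2N 2 (0.0640), PND2N 4 (0.0573), PND0 1 (0.0611) or PND0 4 (0.0798), and EGR1-like passed in PND2R without PND2N 1 (0.0482) or PND0 3 (0.0410). Quantile normalization ended the EGR1-like calls in PND2N (0.0783) and in both day 2 groups together (0.0650), as did a fit of only the groups compared in PND2N (0.0881), and EGR1-like passed in PND2R with plain empirical Bayes (0.0457) or library quality weights (0.0284).

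EGR2, a relative of EGR1 known for its role in myelination and immune cells, was near the floor. Its row on chromosome 14 from 72603461 to 72606302 (minus strand) had values of 1, 7.02, 9.00 and 7.32 in PND2N, 3.64, 3.04, 1 and 4.29 in PND2R, and 8.34, 20.1, 12.6 and 17.3 in PND0. All PND2R libraries lay below all PND0 libraries, and the third PND2N library lay above the first PND0 library. EGR2 averaged 6.09 ± 3.50 in PND2N, 2.99 ± 1.42 in PND2R and 14.6 ± 5.18 in PND0 (SD, n = 4 each). It fell by 1.98 ± 0.53 on the log2 scale in PND2R (limma, adjusted p = 0.0298) and by 1.64 ± 0.46 in both day 2 groups together (0.0314), against a change of -1.30 ± 0.53 in PND2N (0.164).

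At these values the log2 change of EGR2 depends on the 1 added before the log. The call in PND2R ended without PND2R 2 (limma, adjusted p = 0.0760), PND2R 3 (0.0978), PND0 2 (0.0600), PND0 3 (0.0598) or PND0 4 (0.0769), and that in both day 2 groups together without the same libraries, at 0.0531 to 0.0935. Quantile normalization ended the call in PND2R (0.0667) and in both together (0.0718), and with no filter the call in both together ended by little (0.05003). The second EGR2 row, from 72651977 to 72655005 on the minus strand, stood at 1 in all 12 libraries and was not tested.

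KLF6, a Krüppel-like factor found in most tissues, separated birth from day 2 without overlap. The gene lies on chromosome 10 from 74904104 to 74913555 on the plus strand, and its values were 2391, 3733, 4238 and 2668 in PND2N, 3567, 2202, 1811 and 3207 in PND2R, and 4439.7, 5736, 9686 and 6902 in PND0. The highest day 2 library, PND2N 3, was close to the lowest PND0 library, PND0 1. KLF6 averaged 3257 ± 873 in PND2N, 2697 ± 826 in PND2R and 6691 ± 2236 in PND0 (SD, n = 4 each). KLF6 fell by 1.16 ± 0.25 on the log2 scale in both day 2 groups together (limma, adjusted p = 0.0126) and fell by 1.31 ± 0.29 in PND2R (0.0172), and its change in PND2N was -1.02 ± 0.29 (0.0691). Of the 8 rows it alone had all 8 day 2 libraries below all 4 PND0 libraries, a separation seen in 6.62% of all genes.

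The KLF6 call in both day 2 groups together held without any 1 library, and the call in PND2R ended without PND2R 2 (limma, adjusted p = 0.0572) or PND2R 3 (0.0583). Counting each feeding group alone, 3 rows had all 4 PND2N libraries below all PND0 libraries, against 7.88% of all genes, and 5 had all 4 PND2R libraries below them, against 15.6%.

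KLF4, best known as a factor of epithelial differentiation and of reprogramming to pluripotency, did not pass. It lies on chromosome 1 from 260019667 to 260022778 on the minus strand. The values were 152, 294, 286 and 238 in PND2N, 238, 208, 137 and 236 in PND2R, and 253, 349, 934 and 483 in PND0. All PND2R libraries lay below all PND0 libraries, but PND2N 2 and 3 lay above the first PND0 library, and PND0 3 was almost 2-fold above the next highest. Means were 242 ± 65.1 in PND2N, 205 ± 47.4 in PND2R and 505 ± 302 in PND0 (SD, n = 4 each). The log2 change was -1.04 ± 0.34 in both day 2 groups together (limma, adjusted p = 0.0501), -0.92 ± 0.39 in PND2N (0.174) and -1.16 ± 0.39 in PND2R (0.0601). KLF4 passed in both day 2 groups together without PND2N 3 (0.0470), PND2R 1 (0.0499) or PND0 1 (0.0343), and in PND2R without PND2N 1 (0.0422) or PND0 1 (0.0417). It also passed in both together with 5 added before the log (0.0491) or a filter at 10 (0.0481).

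DUSP1, the phosphatase that ends MAP kinase signalling, had the smallest change of the 8 rows. It lies on chromosome 16 from 55297447 to 55300545 on the minus strand, and had values of 2396, 1067, 1338 and 1847 in PND2N, 1408, 1909, 1835 and 1457 in PND2R, and 1862, 2448, 2777 and 2794 in PND0. The lowest PND0 library lay inside the range of both day 2 groups. The means were 1662 ± 587 in PND2N, 1652 ± 257 in PND2R and 2470.3 ± 436 in PND0 (SD, n = 4 each). Its log2 change was -0.60 ± 0.21 in both day 2 groups together (limma, adjusted p = 0.0658), -0.62 ± 0.24 in PND2N (0.152) and -0.57 ± 0.24 in PND2R (0.110). It passed in both day 2 groups together without PND2N 1 (0.0302), with quantile normalization (0.0371) or with library quality weights (0.0439).

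**Figure D3:**
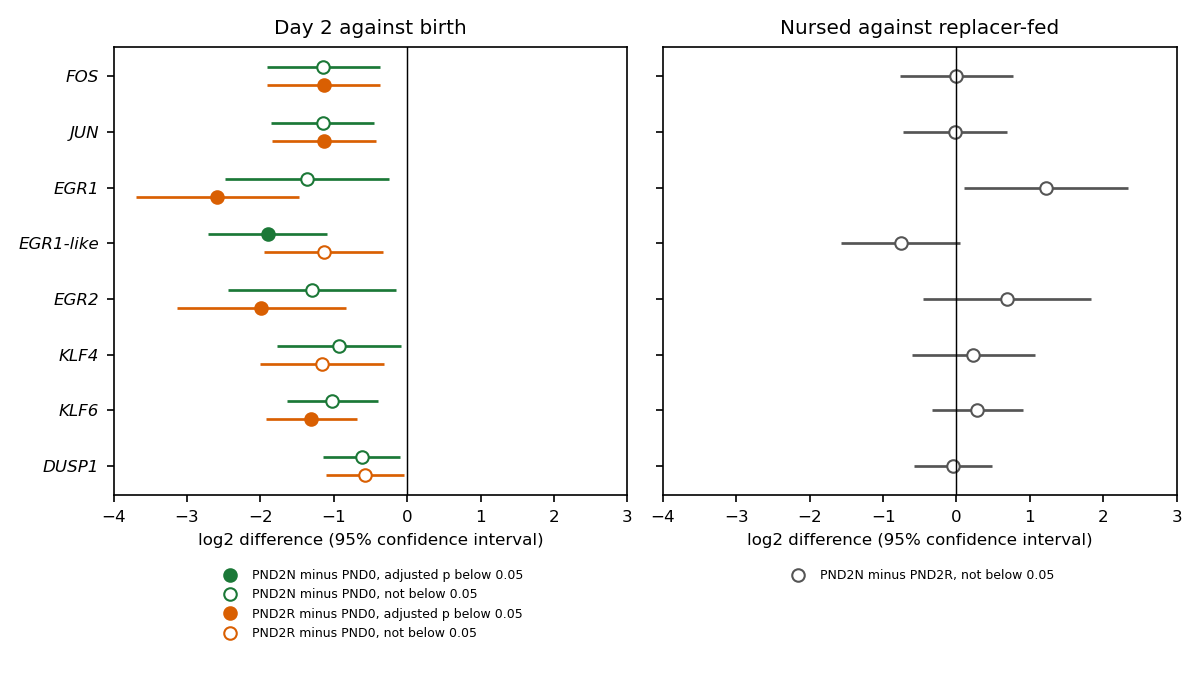
Points give the log2 difference of each gene row and bars its 95% confidence interval from limma, with each day 2 group minus PND0 on the left, PND2N minus PND2R on the right, and filled points for an adjusted p under 0.05. All day 2 points lie below 0, and on the right the estimates scatter on both sides of 0.

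Asked as any difference among the 3 groups, the limma F test passed for EGR1-like (adjusted p = 0.0291), EGR1 (0.0311) and KLF6 (0.0374), where 6.43% of all genes passed. JUN (0.0616), EGR2 (0.0744), FOS (0.0813), KLF4 (0.130) and DUSP1 (0.169) did not.

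At the same age, nursing and milk replacer gave no difference that passed the test in any of the 8 rows, where 0.0119% of all genes, 2 in number, passed. Of the 8 rows, 4 were lower in PND2N than in PND2R, as were 45.4% of all genes. The only unadjusted p under 0.05 was that of the EGR1 row, against 2.68% of all genes, with PND2N above PND2R by 1.22 ± 0.51 on the log2 scale (unadjusted p = 0.0349 in limma, 95% confidence interval 0.10 to 2.33). The EGR1-like row differed the other way, by -0.76 ± 0.37 (interval -1.57 to 0.05), and the sum of both rows by -0.30 ± 0.34, so the split between the rows decides the direction for EGR1. The intervals of the difference, PND2N minus PND2R, were -0.77 to 0.76 for FOS, -0.73 to 0.68 for JUN, -0.57 to 0.48 for DUSP1 and -0.34 to 0.91 for KLF6. They were -0.61 to 1.07 for KLF4 and -0.46 to 1.84 for EGR2. For FOS, JUN, DUSP1 and KLF6 these intervals did not reach the size of the change from PND0 in both day 2 groups together. Those of KLF4, EGR2 and both EGR1 rows did. No power was computed, and smaller differences between feeding groups lie within the intervals.

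Which library was highest or lowest differed between rows. PND0 2 was the highest of the 12 libraries for 5 of the 8 rows, PND0 3 for 2 and PND0 4 for 1. The lowest value was found in PND2R 3 for 4 rows, in PND2N 2 for 2, in PND2N 3 for 2 and in PND2N 1 for 1, with EGR2 counted in both PND2N 1 and PND2R 3, which tied at the floor. With the group means removed, KLF4 and KLF6 varied together over the 12 libraries, with Pearson's r of 0.90 (permutation p = 0.000217, exact within groups, two-sided, adjusted over 21 pairs 0.00456) and Spearman's rho of 0.93 (exact permutation p = 0.00145, adjusted 0.0304). Without PND0 1 and PND0 3, the libraries farthest from the middle for KLF4, r was 0.86. FOS and the summed EGR1 rows had r of 0.78 (exact permutation p = 0.0120, adjusted 0.126) and rho of 0.73 (exact permutation p = 0.0297, adjusted 0.311), and JUN and DUSP1 had r of 0.67 (exact permutation p = 0.0889, adjusted 0.311) and rho of 0.53 (exact permutation p = 0.140, adjusted 0.421). The r of JUN and DUSP1 was 0.40 without PND2N 1 and PND2N 3, and the r of FOS and EGR1 was 0.69 without PND0 2 and PND2R 2. KLF4 and KLF6 were the only pair to pass after adjustment. The permutation treats libraries of a group as exchangeable, whereas both genes followed the library differences in marker genes described below. How many other gene pairs reach such an r was not computed, so the test does not show a link particular to this pair.

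**Figure D4:**
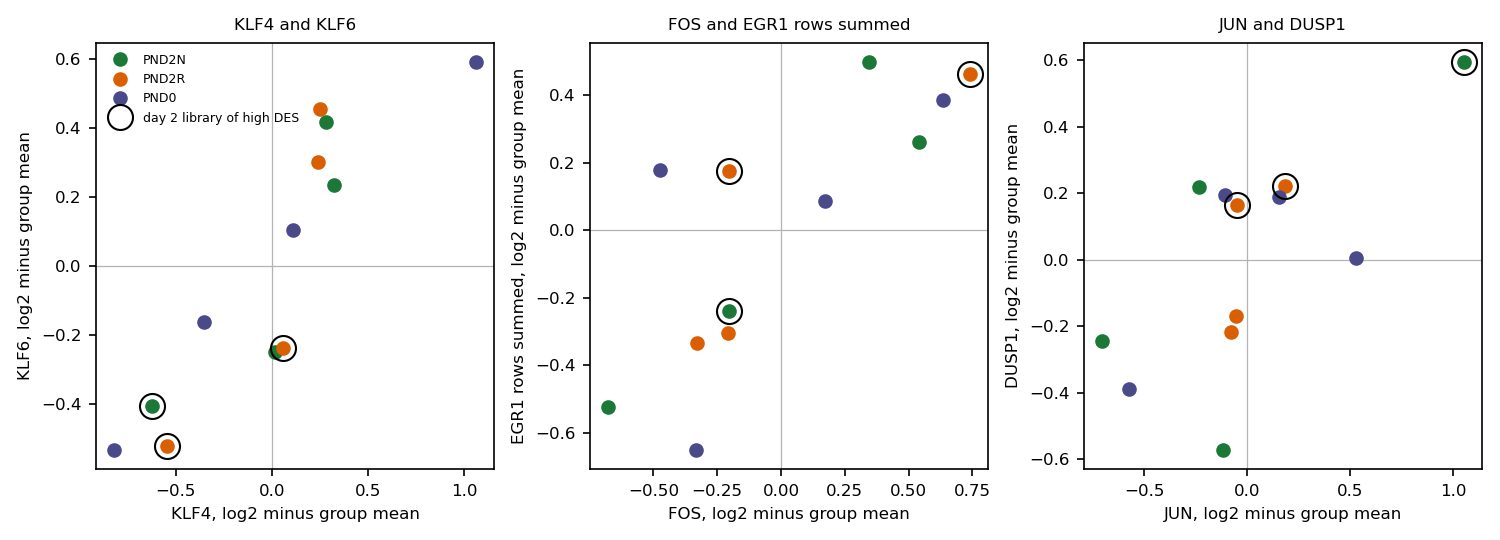
Each panel plots 1 pair of genes in the 12 libraries as log2(value + 1) minus the mean of the library's group, with groups by colour and rings around the 3 day 2 libraries of high DES. KLF4 and KLF6 lie close to 1 line (r = 0.90), whereas FOS with summed EGR1 (r = 0.78) and JUN with DUSP1 (r = 0.67) are more scattered.

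Day 2 libraries with high DES had low KLF4 and KLF6. DES was highest in PND2N 1, PND2R 2 and PND2R 3, at 40049, 33144 and 29022, against 7460 to 23440 in the other 5 day 2 libraries. In those 3 libraries KLF4 was 152, 208 and 137, against 236 to 294 in the other 5, and KLF6 was 2391, 2202 and 1811, against 2668 to 4238. EGR2 was also lower in all 3, at 1, 3.04 and 1 against 3.64 to 9.00, while JUN was higher in all 3, at 12967, 7225 and 6138 against 3845 to 6118, the last of them by little. DUSP1, FOS and both EGR1 rows overlapped between these libraries and the other 5. The share of all genes that separated these libraries in such a way was not computed, so the separation is not shown to be particular to the members. The summed smooth muscle markers, 7 of 10 matched, ran from 95677 to 250450 in PND2N, 126794 to 206015 in PND2R and 105949 to 157212 in PND0. They summed to 250450, 206015 and 200205 in the 3 libraries of high DES against 95677 to 169032 in the other 5. Not every muscle marker followed: SYNPO2 was lower in all 3, at 16530, 15194 and 14172 against 16857 to 21863. The stromal markers, 9 of 10 matched, summed to 286679, 312051 and 245858 in the 3 libraries of high DES against 385922 to 522730 in the other 5. The endothelial markers VWF and CLDN5 went different ways in these 3 libraries. VWF was 24.2, 55.8 and 90.2 against 591 to 1733 in the other 5, and CLDN5 was 1755, 1209 and 1583 against 832 to 1327. The share of genes at the floor was 22.1%, 21.9% and 21.3% in the 3, against 18.7% to 20.4%. The parts of muscle and stromal content and of library or RNA quality in the members' values were not tested.

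Fits without those 3 libraries, chosen after the data were seen, left all member changes from birth negative. In both day 2 groups together JUN changed by -1.35 (limma, adjusted p = 0.0125), FOS by -1.24 (0.0405), EGR1 by -1.97 (0.0232), EGR1-like by -1.67 (0.0245) and KLF6 by -0.90 (0.0400). DUSP1 now passed at -0.79 (0.0361), EGR2 no longer passed at -1.17 (0.0566), and KLF4 was at -0.81 (0.150). In PND2R alone, where 2 libraries remained, JUN (-1.20, adjusted p = 0.0656), FOS (-1.40, 0.0967), KLF6 (-0.93, 0.118) and EGR2 (-1.58, 0.0853) no longer passed. JUN passed in PND2N (-1.50, 0.0338).

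The PND0 libraries themselves fell into pairs by KRT8, at 49821 and 51645 in PND0 1 and 2 and 14444 and 11100 in PND0 3 and 4. The summed epithelial markers, 9 of 10 matched, were 49750 to 91462 in PND2N, 71192 to 91437 in PND2R and 22982 to 104923 in PND0, a spread that spans both day 2 groups. The endothelial markers summed to 16808 and 16431 in PND0 3 and 4 against 13171 and 11582 in PND0 1 and 2, and the mesothelial markers to 14908 and 13051 against 6711 and 9031. The mesothelial sum was almost all WT1, at 14824 and 12967 against 6574 and 8939. UPK3B went the other way, at 58.8 and 69.9 against 107 and 80.4, and LRRN4 and CALB2 overlapped between the pairs. KLF4, KLF6 and DUSP1 were higher in both of PND0 3 and 4 than in either of PND0 1 and 2, and the EGR1 row was lower. The share of all genes that split these libraries in such a way was not computed, so the split is not shown to be particular to the members. In fits chosen after the data were seen, against PND0 3 and 4 alone the day 2 change of KLF4 was -1.63 (limma, adjusted p = 0.0128) and that of KLF6 -1.51 (0.00899), and against PND0 1 and 2 alone they were -0.45 (0.370) and -0.81 (0.107). EGR1 changed by -1.64 (0.0757) and -2.32 (0.0458) in the same fits, EGR1-like by -1.24 (0.0605) and -1.80 (0.0267), and JUN by -1.16 (0.0402) and -1.12 (0.108). FOS, EGR2 and DUSP1 passed in neither. The size of the KLF4 and KLF6 changes differed with the choice of PND0 libraries. Because both genes were higher in PND0 3 and 4, a larger change against that pair was fixed in advance. These fits give sizes only and are no separate evidence. The part of epithelial, endothelial and mesothelial content was not tested.

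Of 30 other immediate early genes listed, 20 were tested. In both day 2 groups together 4 of them fell, where 8.49% of all genes fell, and none rose, with a median log2 change of -0.26. In PND2N 1 fell and in PND2R 2 fell, where 1.41% and 7.31% of all genes did. MAFF, a small MAF protein that pairs with other basic leucine zipper factors, averaged 351 ± 126 in PND2N, 327 ± 30.7 in PND2R and 1439 ± 447 in PND0 (SD, n = 4 each) and fell by 2.06 ± 0.26 (limma, adjusted p = 0.00225). It was the gene that passed in each feeding group too. KLF10, a Krüppel-like factor induced by TGF-beta, averaged 4696 ± 1259 in PND2N, 3095 ± 557 in PND2R and 6585 ± 1063 in PND0 and fell by 0.81 ± 0.20 (limma, adjusted p = 0.0195). CSRNP1, a nuclear protein induced by AXIN1, averaged 388 ± 40.6 in PND2N, 426 ± 42.2 in PND2R and 638 ± 140 in PND0 and fell by 0.63 ± 0.17 (limma, adjusted p = 0.0277). CCN2, the matricellular connective tissue growth factor, fell by 0.99 ± 0.28 (0.0318), with means of 2962 ± 1267 in PND2N, 3029 ± 670.4 in PND2R and 6038 ± 2137 in PND0. The call on MAFF held under every alternative run, and that on KLF10 ended without PND0 3 (limma, adjusted p = 0.0598). CSRNP1 lost its call without PND2R 3 (0.0531), PND0 2 (0.0702), PND0 3 (0.0631) or PND0 4 (0.0545), and CCN2 without PND2N 4, PND2R 2 or 3, or PND0 1, 2 or 3 (0.0552 to 0.0986) or with no filter.

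Genes that damp MAP kinase signalling or destabilise immediate early transcripts gave 3 falls and no rise among 12 tested of 18 listed in both day 2 groups together, with a median log2 change of -0.29. Of all genes, 8.49% fell there. In PND2N 1 fell and in PND2R 2 fell, where 1.41% and 7.31% of all genes did. ZFP36L1, whose protein binds AU-rich elements and promotes decay of the messenger RNA, averaged 344 ± 94.3 in PND2N, 311 ± 60.1 in PND2R and 777 ± 165 in PND0 (SD, n = 4 each) and fell by 1.25 ± 0.23 (limma, adjusted p = 0.00771), a call that held under every alternative run. DUSP10, a phosphatase of the stress-activated kinases, averaged 197 ± 42.3 in PND2N, 266 ± 28.3 in PND2R and 379 ± 102 in PND0 and fell by 0.70 ± 0.22 (limma, adjusted p = 0.0472). SPRY1, an inhibitor of receptor tyrosine kinase signalling, averaged 428 ± 158 in PND2N, 301 ± 166 in PND2R and 725.5 ± 123 in PND0 and fell by 1.14 ± 0.37 (limma, adjusted p = 0.0496). Both calls were marginal: that on DUSP10 ended without any 1 library other than PND2N 2, PND2R 1 or PND0 1 (0.0557 to 0.146), or with TMM scaling, quantile normalization or quality weights. That on SPRY1 ended without any 1 library other than PND2N 2, PND2N 3, PND2R 1 or PND2R 4 (0.0631 to 0.121), or with 0.1 added, no filter, plain empirical Bayes or quality weights. NAB1, a corepressor of EGR proteins, averaged 2392 ± 104 in PND2N, 2380 ± 77.9 in PND2R and 2009 ± 279.5 in PND0 and did not pass (log2 change 0.26 ± 0.11, limma, adjusted p = 0.112).

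**Figure D5:**
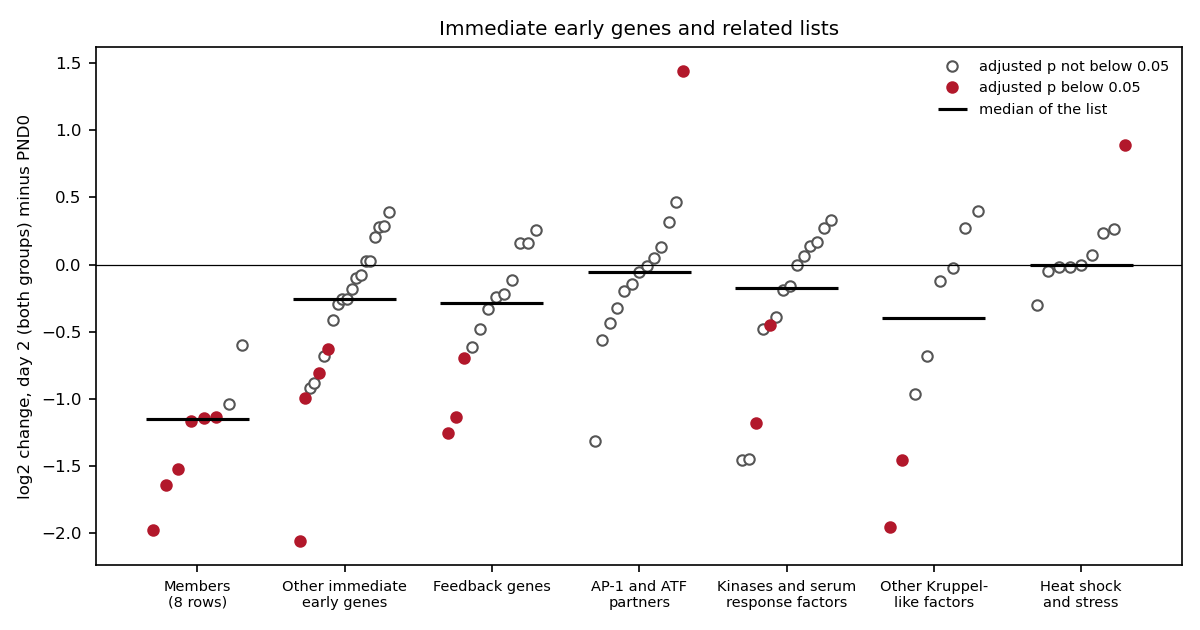
Points give the log2 change in both day 2 groups together against PND0 for each tested gene of the members and of the related gene lists, bars mark list medians, and filled points have an adjusted p under 0.05 in limma. The 8 member rows lie between -1.98 and -0.60, and the list medians between -0.40 and -0.0039.

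The other AP-1 and ATF partners showed no common direction, with 1 rise and no fall among 13 tested of 17 listed and a median of -0.055. Of all genes, 9.57% rose and 8.49% fell. BATF, an AP-1 factor of lymphocytes and other leukocytes, averaged 33.3 ± 15.6 in PND2N, 43.3 ± 15.6 in PND2R and 13.7 ± 6.68 in PND0 (SD, n = 4 each). It rose by 1.44 ± 0.42 (limma, adjusted p = 0.0350), beside the leukocyte markers that rose at day 2, whose part was not tested. The BATF call ended without PND2N 1 or 4, PND2R 2 or 3, or PND0 1, 3 or 4 (0.0517 to 0.118), or with quality weights. ATF5 (-0.56 ± 0.23, limma, adjusted p = 0.0999), CREM (-0.43 ± 0.21, 0.150) and ATF2 (-1.32 ± 0.68, 0.171) did not pass. ATF5 passed with library quality weights (0.0499) and without PND2N 1, PND2R 2 and PND2R 3 (0.0267), the second fit being chosen after the data were seen. The change of ATF2 ran from -1.55 to -0.31 over all alternatives and passed in none.

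Among upstream kinases and serum response factors, 2 of 14 tested (of 20 listed) fell in both day 2 groups together, MKL1 also in each feeding group alone, and the median was -0.17. Of all genes, 8.49% fell in both together, 1.41% in PND2N and 7.31% in PND2R. MKL1 (MRTFA), an actin-regulated coactivator of SRF, averaged 481 ± 124 in PND2N, 383 ± 107 in PND2R and 955 ± 119 in PND0 (SD, n = 4 each). It fell by 1.18 ± 0.21 (limma, adjusted p = 0.00696), a call that held under every alternative run. ELK1, the MAP kinase target that binds beside SRF, averaged 1332 ± 176 in PND2N, 1321 ± 202 in PND2R and 1809 ± 195 in PND0 and fell by 0.45 ± 0.14 (limma, adjusted p = 0.0409). The ELK1 call ended without any 1 library other than PND2N 1 (0.0503 to 0.0950), or with TMM scaling or plain empirical Bayes. SRF itself averaged 4466 ± 653 in PND2N, 4256 ± 910 in PND2R and 6158 ± 1530 in PND0 and did not pass (-0.48 ± 0.19, limma, adjusted p = 0.0899), but passed without PND0 1 (0.0314). BRAF, a kinase above MAP kinase, did not pass (-1.45 ± 0.48, 0.0561), but passed without PND2N 3 (0.0348), PND2R 1 (0.0378) or PND2R 4 (0.0477) or with quantile normalization.

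Of the other Krüppel-like factors, 8 of 10 were tested and 2 fell, also in each feeding group, with a median of -0.40. The shares of all genes that fell were 8.49% in both groups together, 1.41% in PND2N and 7.31% in PND2R. KLF7, studied mainly in neurons, averaged 543 ± 160 in PND2N, 572 ± 120 in PND2R and 1654 ± 879.5 in PND0 (SD, n = 4 each) and fell by 1.45 ± 0.31 (limma, adjusted p = 0.0126). KLF9, which in mice takes part in uterine responses to progesterone, averaged 1.73 ± 1.21 in PND2N, stood at 1 in all 4 PND2R libraries and averaged 8.21 ± 3.41 in PND0. Its log2 change of -1.95 ± 0.30 (limma, adjusted p = 0.00409) depends on the 1 added, since the day 2 values are at or near the floor. KLF8 (-0.97 ± 0.35, 0.0723 in limma) and KLF3 (0.40 ± 0.15, 0.0747) did not pass, but KLF8 passed without PND0 2 (0.0302) and KLF3 without PND0 1 (0.0372).

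The heat shock and stress genes, 9 tested of 16 listed, had a median of -0.0039, with 1 rise and no fall, where 9.57% of all genes rose. HSPE1, the mitochondrial co-chaperonin, averaged 8718 ± 2099 in PND2N, 9955 ± 2029 in PND2R and 5041 ± 1074 in PND0 (SD, n = 4 each) and rose by 0.89 ± 0.18 (limma, adjusted p = 0.0111). DNAJA1 (0.26 ± 0.14, 0.189 in limma), HSPD1 (0.24 ± 0.13, 0.209) and HSPA8 (-0.30 ± 0.42, 0.615), all chaperone genes, did not pass. In PND2N against PND2R no gene of any of these lists passed in limma. An unadjusted p under 0.05 was reached by 2 genes in all, 1 among the other immediate early genes and 1 among the kinases and serum response factors, against 2.68% of all genes.

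The genes whose pattern over the 12 libraries was most like the mean standardised profile of the members were PER1, VAMP2, IGHMBP2, TMEM63B, C14H10orf62 and FAM189B, among 11112 candidates with a symbol and a mean of at least 10. Their Pearson correlations with that profile were 0.96, 0.95, 0.93, 0.93, 0.93 and 0.92, where the median candidate had -0.043 and the 95th percentile was 0.73. Much of such a likeness is the difference between birth and day 2, so these values describe and are not tested. PER1, a circadian clock gene that is also induced rapidly by stimuli, averaged 75.4 ± 21.5 in PND2N, 65.0 ± 8.95 in PND2R and 368 ± 85.3 in PND0 (SD, n = 4 each). VAMP2, a vesicle fusion protein gene, averaged 107 ± 13.2 in PND2N, 97.8 ± 18.4 in PND2R and 342 ± 77.5 in PND0. PER1 and VAMP2 are neighbours on chromosome 12 of Sscrofa10.2, from 56193786 to 56202988 and from 56182494 to 56185034, both on the plus strand. IGHMBP2, a helicase gene, averaged 620.4 ± 40.9 in PND2N, 510.3 ± 76.2 in PND2R and 1430.1 ± 341 in PND0. All 6 genes were lower in every day 2 library than in every PND0 library, a separation seen in 6.62% of all genes. They were chosen for likeness to a profile that is itself highest in the PND0 libraries, so this separation largely follows from the choice.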

How the data were processed

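The authors deposited 1 table with 1 signal value per gene and library, a normalized linear value whose floor is 1. Per the submitters' processing notes, bcl2fastq was used and the build was Sscrofa10.2. For the aligner, the counting, the use of strand and the normalization, the sources used here give nothing. Low values were multiples of 1 step per library in only 32.2% to 38.9% of cases (within 0.02 steps), so reads were not recovered, no count test was run and read depth is unknown. Placeholder rows, 13716 in number, took names from the RefSeq gene table of Sscrofa11.1 where it held them (6403 rows); that table gave no coordinates. Levels of different genes are not compared, since no length scale is known.

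Genes above 1 in at least 4 of the 12 libraries were tested on log2(value + 1). A single fit of all 12 libraries with limma 3.58.1 in R 4.3.3, using robust and trended empirical Bayes (statmod 1.5.0) and no covariate, gave 4 two-sided contrasts and an F test, with Benjamini-Hochberg adjustment over all 16862 genes and a threshold of 0.05. Errors of log2 changes are standard errors. The labels name 4 animals per group by library only, so p-values measure the spread between these libraries. The procedure was also run on simulated data, and the outcome is not given here. Figures were drawn with matplotlib 3.10.9 and tables made with pandas 2.3.3, numpy 2.4.6 and Python 3.11.15.

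Named are all members, up to 4 genes per list with the smallest unadjusted p at day 2 against PND0, and the 6 genes of most like pattern. The members and the 14 other lists (184 entries, 142 matched) were chosen with earlier results of these data known. Genes found on several rows were left out of list counts. Of the marker lists not given with the results, summed values were 10285 to 14775 in PND2N, 9211 to 11391 in PND2R and 11582 to 16808 in PND0 for endothelium (8 of 10 matched), 286679 to 522730 in PND2N, 245858 to 425697 in PND2R and 339453 to 437997 in PND0 for stroma (9 of 10), and 8129 to 9485 in PND2N, 5847 to 9756 in PND2R and 6711 to 14908 in PND0 for mesothelium (4 of 6). They were 35291 to 47107 in PND2N, 42066 to 50272 in PND2R and 38360 to 47451 in PND0 for uterus and Mullerian duct (8 of 10). At the floor of 1 were CD14 in 2 libraries and LRRN4 in 1. The result of 1 marker list is not reported here. The alternatives tried were a filter at 10 or none, 0.1 or 5 added before the log, quantile normalization, TMM scaling (trims of 0.3 and 0.05), library quality weights, plain empirical Bayes, a fit of only the groups compared, and omission of single libraries. Other fits were chosen after the data were seen: without PND2N 1, PND2R 2 and PND2R 3, without PND0 1 and 2, without PND0 3 and 4, and with the EGR1 rows summed.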

Additional observations from a re-analysis of the deposited data

Results flagged for a closer look

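In 11 of 116 groups of 4 libraries examined, over the members and the other genes named, 1 library lay far from the others of its group. Chance alone flags about 1 in 20 such groups if values are normally distributed. The rule was applied to linear values with a floor, for which the rate was not computed. Among the members, both cases were PND2R 2: JUN had 7225 there, with the nearest other PND2R library at 6138, and FOS had 459, with the nearest at 238. JUN in PND2N 1, at 12967 with the nearest at 5760.5, was not flagged by this rule.

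In the day 2 groups, PND2N 1 stood high for ATF5 (1222, nearest 715) and ELK1 (1592, nearest 1267), and PND2N 3 for KLF9 (3.53, nearest 1.40). PND2R 2 stood low for KLF7 (394, nearest 605) and PND2R 3 for IGHMBP2 (397, nearest 539.7). PND2R 4 stood high for C14H10orf62 (9.87, nearest 3.36) and PND2R 1 for KLF8 (1.11, with the other 3 at 1). In PND0, PND0 3 stood low for ZFP36L1 (531, nearest 833) and PND0 2 for MKL1 (777, nearest 1009.8).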

How the results depend on the processing

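No member row changed direction between day 2 and PND0 in any alternative. The member rows called were 1 in PND2N against PND0, but 0 with quantile normalization or only the groups compared, 2 with library quality weights or without PND2N 1, PND2R 2 and PND2R 3 (chosen after seeing the data, as are the splits of PND0), and 3 without PND0 1 and 2. They were 5 in PND2R against PND0, but 3 with no filter, quantile normalization or without PND0 1 and 2, and 1 without the 3 day 2 libraries or without PND0 3 and 4. They were 6 in both day 2 groups together, but 3 without PND0 1 and 2 and 2 without PND0 3 and 4. Genes called in PND2N against PND0 numbered 560, and 859 with no filter, 7 with only the groups compared, 275 without the 3 day 2 libraries and 2169 without PND0 1 and 2. In PND2R against PND0 they numbered 2531, and 284 without the 3 day 2 libraries and 1169 without PND0 3 and 4. In both day 2 groups together they numbered 3046, and 1419 and 1391 in the same fits. In PND2N against PND2R they numbered 2, and 1 with only the groups compared or without either pair of PND0 libraries, and 6 with quality weights or without the 3 day 2 libraries. Leaving out 1 library at a time gave 0 to 1 member rows in PND2N, 1 to 7 in PND2R and 3 to 7 in both groups against PND0, and 0 in PND2N against PND2R. Genes called were then 26 to 661 in PND2N, 543 to 4109 in PND2R and 1014 to 3837 in both groups against PND0, and 1 to 3 in PND2N against PND2R.

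Sign changes came between PND2N and PND2R, where no member was called. Leaving out 1 library gave -0.18 to 0.24 for FOS, -0.37 to 0.21 for JUN and -0.24 to 0.14 for DUSP1. FOS was 0.064, 0.22 and 0.24 without PND2N 1, PND2N 2 and PND2R 2 and 0.33 without the 3 day 2 libraries; JUN was 0.015, 0.21, 0.053 and 0.037 without PND2N 2, PND2N 3, PND2N 4 and PND2R 2; DUSP1 was 0.14, 0.035, 0.028 and 0.0088 without PND2N 2, PND2N 3, PND2R 2 and PND2R 3; and EGR1 was -0.30 with its rows summed. HSPA8 at day 2 was 0.25 without the 3 day 2 libraries. Without PND0 3 and 4 the calls on KLF7 (limma, adjusted p = 0.0963), HSPE1 (0.0873) and KLF10 (0.102) ended. Apart from the EGR1 sum, whose construction changes the row, the cause was not tested. No paired analysis was possible because the labels' library numbers pair no animals. The restriction to the groups compared was not run for both day 2 groups together, which use all 12 libraries.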
